A study of Homo sapiens with 14 samples.

Results

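The comparison described here sets 3 TNNT2- libraries against 3 TNNT2+ libraries from 2D cardiomyocyte cultures at day 25, 6 of the 14 samples in the series. The libraries were chosen by their labels alone, by culture system and sorted fraction. TNNT2 encodes cardiac troponin T, a thin filament protein of heart muscle, so that the TNNT2+ fraction holds the cardiomyocytes and the TNNT2- fraction the other cells of the same dish. H9 is an established human pluripotent stem cell line. In all groups it carried a Cas9 switched on by doxycycline and a pooled guide library against transcription factors, and the genotype is labelled WT. Each library is a count of guide cassettes amplified from genomic DNA. The comparison asks which guides differ in abundance between the fractions. Guide abundance at day 25 alone does not show how such a difference arose. A guide whose knockout blocks the cardiomyocyte fate would be relatively more abundant in TNNT2- cells, and a guide whose knockout favours that fate in TNNT2+ cells.

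In a pooled knockout screen each cell receives a guide at random, Cas9 cuts the matching gene, and the guide in the genome serves as the label of the cell. Cardiomyocytes arise from pluripotent cells through mesendoderm and cardiac mesoderm. EOMES, T and MESP1 act in the early steps, and NKX2-5, GATA4, TBX5, HAND1, HAND2, MEF2C and ISL1 act in the progenitors and the forming muscle. Guide abundance says nothing about whether a gene was expressed or cut in a given cell, and cutting at the target sites was not analysed here. H9 with an inducible Cas9 is a single engineered line. The labels' protocols give only a total of sorted cells, not the number behind each library.

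The library held 11364 guides, including 100 control guides, against 1633 target names, of which 1574 had 7 guides. The 6 libraries held 22355936 to 26510994 reads, with a median of 1693 to 2034.5 reads per guide. Guides under 10 reads made up 0.502% to 3.19% of a library, and the highest share was that of TNNT2+ replicate 1. A low count in a single library was far more common than one shared by a fraction. Of the 571 guides under 10 reads in at least 1 library, 438 were low in exactly 1, and 259 of these were low in TNNT2+ replicate 1 alone. Only 1 guide was under 10 reads in all 3 TNNT2+ libraries and in no TNNT2- library, none showed the reverse, and 18 were low in all 6.

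No guide and no gene passed the threshold in either direction. Single guides were tested with limma on log2(normalised reads + 10), with Benjamini-Hochberg adjustment and calls at an adjusted p under 0.05. Of 11346 guides tested, 0 (0%) were called toward TNNT2- and 0 (0%) toward TNNT2+, and the smallest adjusted p was 0.986. Unadjusted, 190 guides toward TNNT2- and 189 toward TNNT2+ had a limma p under 0.05, together 3.34% of the guides. Genes were then called by rank aggregation, in which the limma p-values of a gene's guides are ranked among all guides. A gene scores when several of its guides rank high or when 1 guide ranks very high. Of 1621 genes, 0 (0%) were called in each direction. The smallest adjusted p was 0.624 toward TNNT2- and 0.174 toward TNNT2+, and 86 and 83 genes had an unadjusted p under 0.05. With edgeR on the recovered reads and with DESeq2, 1 gene, MSANTD4, was called toward TNNT2+ by rank aggregation and 0 toward TNNT2-. DESeq2 also called 3 single guides toward TNNT2- and 2 toward TNNT2+, while edgeR called 0 guides.

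Another measure kept the libraries as the replicates. The log2 values of a gene's guides were averaged in each library and the 3 TNNT2- means were compared with the 3 TNNT2+ means, which gives a difference, TNNT2- minus TNNT2+, with a 95% interval. By this gene mean 0 of 1621 genes (0%) were called, with a smallest adjusted p of 0.963 by limma, and edgeR on reads summed over guides called 0 as well. An unadjusted limma p under 0.05 was reached by 42 genes with the higher mean in TNNT2- cells (2.59%) and by 20 with the higher mean in TNNT2+ cells (1.23%). The differences were small for most genes. The range from the 5th to the 95th percentile was -0.37 to 0.49 on the log2 scale, with a median of 0.05. At the median over genes the interval reached 0.53 to either side of the difference. For 1339 genes, 82.6%, the whole interval lay within a 2-fold change in either direction, so a larger change in the mean of their guides lay outside the 95% interval. Such an interval covers the spread between libraries and not the efficiency of the guides.

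**Figure D1:**
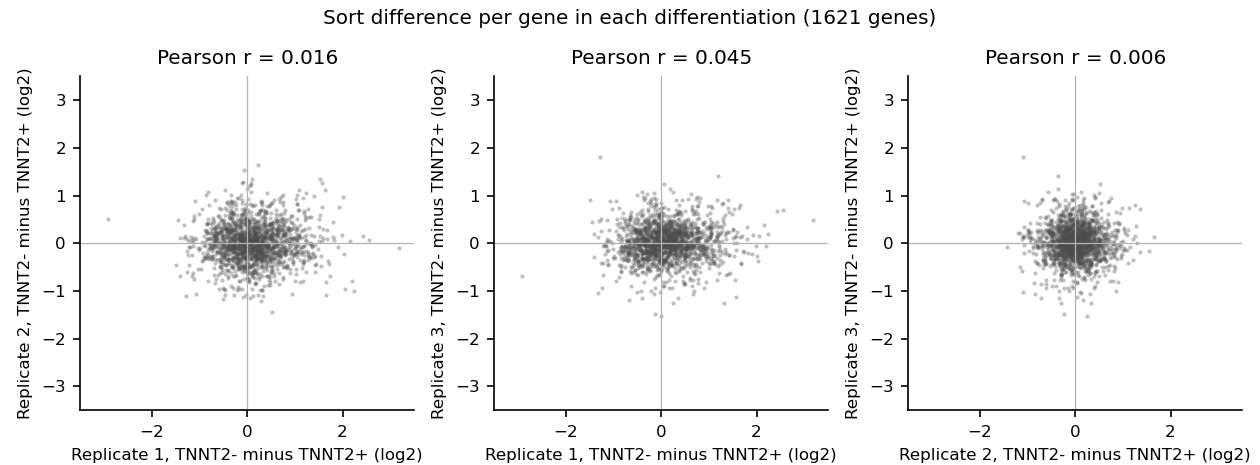
Sort difference of each of 1621 genes (TNNT2- minus TNNT2+, log2 gene mean), one differentiation against another. Each point is a gene, and the clouds have no visible slope, with Pearson r of 0.016, 0.045 and 0.006.

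The 3 differentiations did not rank the genes alike. A differentiation was sorted into both fractions under one replicate number, so each number gives its own difference for every gene. Across the 1621 genes these differences correlated at r = 0.016 between replicates 1 and 2, 0.045 between 1 and 3 and 0.006 between 2 and 3. These pairs share no library, but they share the guide library and the guide counts per gene, and genes are not independent replicates. The share of genes with the same sign was 50.09%, 53.12% and 49.97%. The plot of one differentiation against another shows clouds without a slope. The spread of the differences was widest in replicate 1, with an SD over genes of 0.60, against 0.41 and 0.37 in replicates 2 and 3. All 3 differentiations pointed toward TNNT2- for 248 genes (15.3%) and toward TNNT2+ for 183 (11.3%). By gene mean, all 3 TNNT2- libraries lay above all 3 TNNT2+ libraries in 78 genes (4.81%), and the reverse held for 59 (3.64%). Fractions are called apart or fully apart in this sense, and where summed reads are given they are apart in these as well. HAND1, HES5, SMAD4 and SOX1 are called apart below by gene mean only, and their summed reads overlapped.

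Control guides, whose spread shows what a sort gives without a targeted gene, covered much of the range of the targeted ones. Averaged over the 3 libraries of each fraction, the 100 control guides had a median difference of -0.04 and an SD of 0.60 on the log2 scale. The 11246 targeted guides had a median of 0.01 and an SD of 0.72. Of the control guides 3% had an unadjusted limma p under 0.05, against 3.34% of the targeted guides, and the libraries of the fractions were fully apart for 9% and 8.81%. Within a single differentiation the targeted guides were the more variable, with SDs of 1.60, 1.11 and 0.93 in replicates 1, 2 and 3, against 1.28, 0.97 and 0.64 for the controls. The distribution plot shows the longest tails among targeted guides, which ranged from -4.63 to 4.33, while control guides ranged from -2.10 to 3.14. A range widens with the number of guides, and the control guides were far fewer. From the 5th to the 95th percentile the targeted guides reached from -0.95 to 1.24 and the control guides from -0.78 to 0.83.

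**Figure D2:**
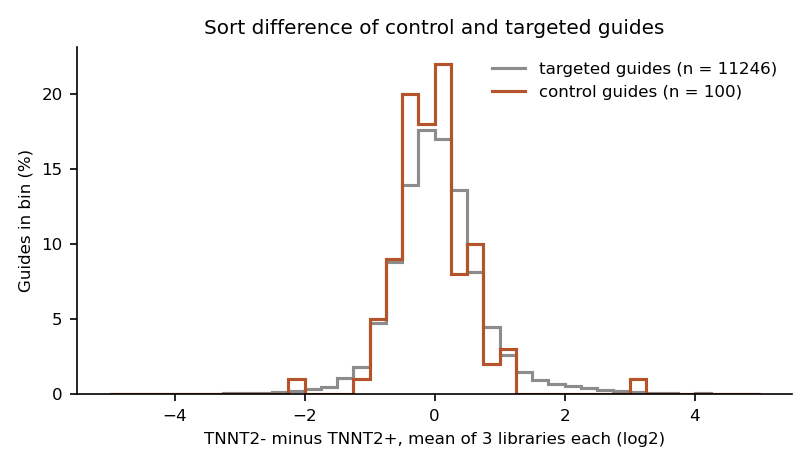
Distribution of the sort difference of 11246 targeted and 100 control guides in percent of guides per bin (TNNT2- minus TNNT2+, log2, mean of 3 libraries each). Both peak near 0, and the SDs are 0.72 and 0.60.

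The gene closest to a call was MSANTD4, on chromosome 11 from 106007899 to 106022287 (GRCh38.p14), which encodes a protein with a Myb/SANT-like DNA binding domain. Its 7 guides summed to 9834, 10371 and 8928 normalised reads in TNNT2- replicates 1, 2 and 3 and to 22332, 11907 and 14745 in TNNT2+ replicates 1, 2 and 3. Every TNNT2+ library was above every TNNT2- library, and TNNT2+ replicate 1 was the highest. The gene mean differed by -0.81 on the log2 scale (95% interval -1.33 to -0.29, 3 libraries each), a level 1.75-fold higher in TNNT2+ cells. The 3 differentiations gave -1.24, -0.24 and -0.94. All 7 guides lay lower in TNNT2- cells, with a median of -0.71 ± 0.56 (SD over 7 guides). They ranged from -0.03 for guide 6 to -1.76 for guide 5, which had 844.8, 259.2 and 347.1 normalised reads in TNNT2- and 1880, 1388 and 1206 in TNNT2+ libraries. The adjusted p by limma and rank aggregation was 0.174. It was 0.0375 without TNNT2+ replicate 2, the TNNT2+ library with the lowest sum, from the differentiation with the smallest difference. The adjusted p by rank aggregation was 0.0359 with edgeR guide p-values and 0.0287 with those of DESeq2. Over all alternatives it ranged from 0.0287 to 0.974, the highest without TNNT2- replicate 3, and the other fits tried gave no call.

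**Figure D3:**
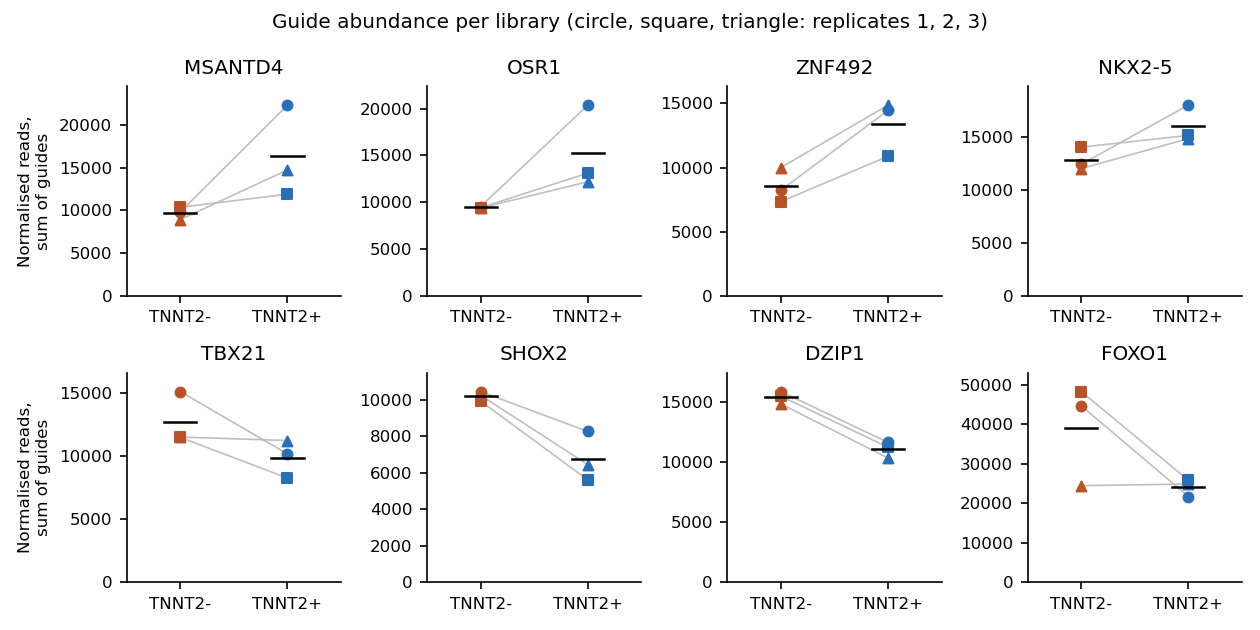
Normalised reads summed over the guides of 8 genes (linear axis from 0) in each library. Lines join the fractions of one differentiation, horizontal bars are means of 3 libraries. MSANTD4, OSR1, ZNF492 and NKX2-5 lie higher in all 3 TNNT2+ libraries, while 1 of the 3 FOXO1 lines is flat.

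OSR1, a zinc finger regulator of intermediate and lateral plate mesoderm, followed. It lies on chromosome 2 from 19344874 to 19358623. Its guides held 9532, 9417 and 9386 normalised reads in TNNT2- replicates 1 to 3, and 20366, 13103 and 12183 in TNNT2+ replicates 1 to 3. The TNNT2- libraries were almost level and the TNNT2+ libraries all higher, with replicate 1 again the highest. The gene mean differed by -0.78 (interval -1.27 to -0.29), and the differentiations gave -1.13, -0.76 and -0.46. As for MSANTD4, all 7 guides were lower in TNNT2- cells, from -0.16 for guide 6 to -1.62 for guide 7. The adjusted p by limma and rank aggregation was 0.267, and over the alternatives it ranged from 0.0508 to 0.974.

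Further genes leading toward TNNT2+ were less uniform over their guides. The Kruppel-type zinc finger gene ZNF492 differed by -0.75 (-1.32 to -0.18) and the homeobox gene NKX1-2 by -0.60 (-1.07 to -0.14), each with 6 of 7 guides lower. ZNF492 held 8237, 7357 and 10006 normalised reads in TNNT2- and 14468, 10881 and 14871 in TNNT2+ replicates 1 to 3, fully apart. ZNF107 had the lowest gene mean of all 1621 genes, -1.04 (interval -2.09 to 0.01), but its differentiations gave -2.93, 0.50 and -0.69. With the median in place of the mean over guides ZNF107 was at 0.47. L3MBTL1, a reader of methylated histones, had 5 of 6 guides lower and a gene mean of -0.56 (-1.11 to -0.01). MBD4, a DNA glycosylase that binds methylated CpG sites, ranked high through guide 4. That guide had 588.5, 947.5 and 1187 normalised reads in TNNT2- and 4238, 2190 and 3011 in TNNT2+ libraries, a difference of -1.79 (-2.77 to -0.80). The gene mean of MBD4 was -0.27 (-0.74 to 0.20).

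Toward TNNT2- the forkhead factor FOXO1, which insulin and AKT signalling hold out of the nucleus, had the most abundant guides of the leading genes. It lies on chromosome 13 from 40555667 to 40666641. Its guides held 44717, 48335 and 24502 normalised reads in TNNT2- replicates 1 to 3, and 21760, 25872 and 24927 in TNNT2+ replicates 1 to 3. Replicates 1 and 2 were higher in TNNT2- cells, while the sums of replicate 3 were about level, so the fractions overlapped. The gene mean differed by 0.51 (interval 0.04 to 0.97), the differentiations gave 0.30, 0.81 and 0.42, all toward TNNT2-, and 6 of 7 guides were higher in TNNT2- cells. FOXO1_3 had the smallest limma p of all guides toward TNNT2-, 0.00135 unadjusted and 0.986 adjusted. It held 8156, 9577 and 5768 normalised reads in TNNT2- and 2670, 4814 and 3138 in TNNT2+ libraries, fully apart, with a difference of 1.16 (0.51 to 1.81). Guide 7 had few reads in any library, at 0, 228.4 and 89.1 against 201, 211.2 and 0. By limma and rank aggregation the adjusted p of FOXO1 was 0.624. Without TNNT2- replicate 3 it was 6.6e-05 with a median over guides of 0.88, and in that fit the TNNT2- fraction was represented by replicates 1 and 2, in which the summed reads of FOXO1 were high. Over all alternatives its adjusted p reached up to 0.945.

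**Figure D4:**
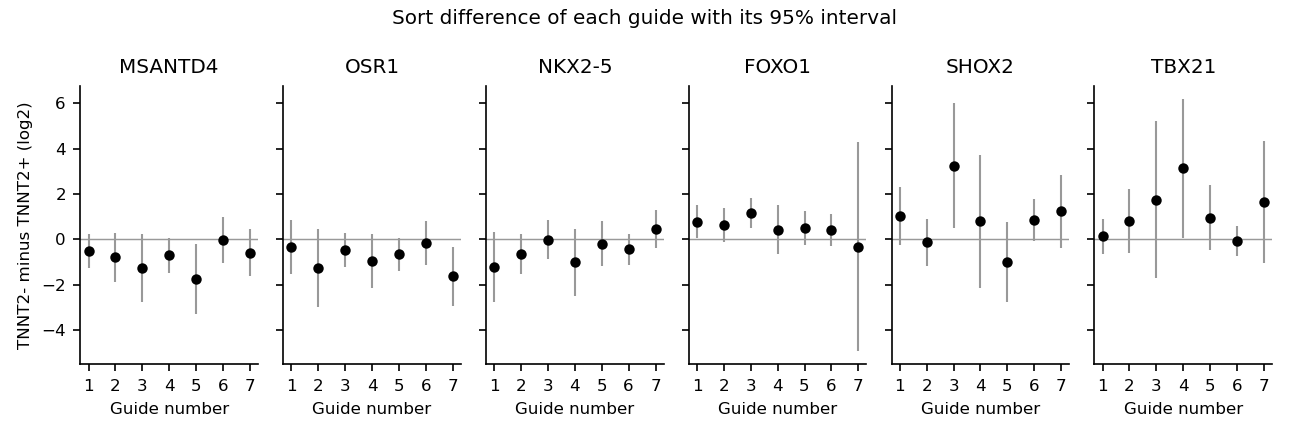
Sort difference of each guide of 6 genes (TNNT2- minus TNNT2+, log2) with its 95% interval from limma. All 7 MSANTD4 and OSR1 guides lie below 0, 6 of 7 FOXO1 guides lie above 0, and the guides of SHOX2 and TBX21 spread over more than 3 log2 units.

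SHOX2, a homeobox factor of the sinoatrial node that restrains NKX2-5 there in mouse, had its fractions fully apart. It lies on chromosome 3 from 158095905 to 158106420. Its guides held 10455, 9937 and 10249 normalised reads in TNNT2- replicates 1 to 3 and 8271, 5610 and 6452 in TNNT2+ replicates 1 to 3. The gene mean differed by 0.86 (interval 0.16 to 1.56), and the differentiations gave 1.03, 0.93 and 0.63. The guides disagreed, from 3.23 for guide 3, which had 0 reads in TNNT2+ replicate 1, to -0.996 for guide 5, and 5 of 7 were higher in TNNT2- cells.

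TBX21, the T-box factor of type 1 helper T cells, had the largest gene mean toward TNNT2-, 1.19 (interval 0.50 to 1.89), with 1.52, 1.35 and 0.71 in the differentiations. It lies on chromosome 17 from 47733236 to 47746122. Summed over guides the difference was smaller. TNNT2- replicates 1 to 3 held 15136, 11504 and 11530 normalised reads, and TNNT2+ replicates 1 to 3 held 10191, 8276 and 11255, so the fractions were apart by little. Guide 4 stood at 4343, 471.1 and 486 against 0, 216.2 and 659.8, and guide 7 at 1822, 1040 and 1156 against 3116, 7.51 and 1299. Near-empty counts of this kind weigh heavily in a mean of log2 values, but their part in the value of TBX21 was not tested. Of its 7 guides 6 were higher in TNNT2- cells. With the median over guides TBX21 was at 0.85, and with 1 library left out its gene mean was 1.01 to 1.41. The lowest value, 0.39, came from edgeR on reads summed over guides. By edgeR on summed reads the difference was smaller for further genes named here. Of the 59 genes named by rule, 28 had a difference over 1.5 times smaller with edgeR on summed reads, 4 a larger one by that factor, and 4 changed sign. Many of the 59 were selected by their gene mean, which favours smaller values by any other summary. The count was not made over all genes, so it describes the named genes only.

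DZIP1, a zinc finger protein of the ciliary base, also led toward TNNT2- by gene mean. Its guides held 15839, 15452 and 14814 normalised reads in TNNT2- and 11616, 11216 and 10321 in TNNT2+ replicates 1 to 3, fully apart. The gene mean differed by 0.72 (interval 0.27 to 1.18), and all 7 guides were higher, although guide 2 by only 0.03. ZBTB42 differed by 0.71 (0.12 to 1.29), the placental regulator GCM1 by 0.76 (0.13 to 1.40), the parathyroid regulator GCM2 by 0.78 (0.24 to 1.32) and RUNX3, a factor of T cell development, by 0.71 (0.13 to 1.30). With edgeR on summed reads GCM1 was at 0.32 and GCM2 at 0.17. The summed reads of GCM2 overlapped, with 14440 in TNNT2- replicate 1 and 15629 in TNNT2+ replicate 1, and GCM2_2 held 0, 1217 and 0 normalised reads in TNNT2+ replicates 1 to 3. Without TNNT2+ replicate 1 GCM1 was at 0.45. BPTF, a subunit of the NURF chromatin remodelling complex, differed by 0.86 (-0.08 to 1.81), and the differentiations gave 2.16, 0.05 and 0.39. WIZ, a zinc finger partner of the histone methyltransferases G9a and GLP, ranked high through guide 5 (1.45), but its gene mean was -0.05 (-0.63 to 0.53).

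Agreement of all guides of a gene was rare. Guides of random direction would also agree in some genes, and the counts below were not compared with that number. Among 1556 genes with 7 tested guides, all 7 were higher in TNNT2- cells in 7 genes (0.45%) and lower in 14 (0.9%). The 7 higher genes were CENPA, DZIP1, FOXL1, HES4, HHEX, ZC3H8 and ZNF562. Among them only DZIP1, the Notch target HES4 at 0.54 and the homeobox gene HHEX at 0.30 had fully separate fractions. CENPA, the histone variant of centromeres, had 1.57, 0.76 and -0.14 in the differentiations. Among the 14 lower genes were MSANTD4, OSR1, the immediate early gene FOS at -0.32, the pluripotency-associated factor KLF4 at -0.27 and the interferon regulator IRF3 at -0.40. FOS, KLF4 and IRF3 had overlapping fractions. These genes were picked out by the agreement of their guides after their values were seen, and none passed a test.

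The gene mean exceeded a 2-fold difference in 7 genes, and in none did the whole interval lie beyond it. Toward TNNT2- these were TBX21, the secretory cell factor BHLHA15 (1.11), the germline and cleavage stage factor DUX4 (1.19), ZNF217 (1.04), ZNF486 (1.17) and ZNF491 (1.08), and toward TNNT2+ it was ZNF107. None of the 7 exceeded it with edgeR on summed reads, which gave 0.39 for TBX21, 0.54 for BHLHA15, 0.22 for DUX4, 0.18 for ZNF217, 0.37 for ZNF486, -0.07 for ZNF491 and -0.43 for ZNF107. Without TNNT2+ replicate 1 ZNF486 was at 0.77. In all 7 genes the largest difference in size was that of replicate 1. For BHLHA15, DUX4, ZNF491 and ZNF107 it was 2.56, 3.19, 2.43 and -2.93. For TBX21, ZNF486 and ZNF217 it was 1.52, 1.64 and 1.41, with replicate 2 at 1.35, 1.12 and 0.98. TNNT2+ replicate 1 held most of the guides that were low in a single library, as given above. The part of these low guides in the 7 gene means was not tested. For ZNF107 the lower library of the pair was TNNT2- replicate 1, with 9547 summed normalised reads against 16948 in TNNT2+ replicate 1. DUX4 had 3 tested guides, and its near-identical genomic copies can each be cut by the same guide.

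**Figure D5:**
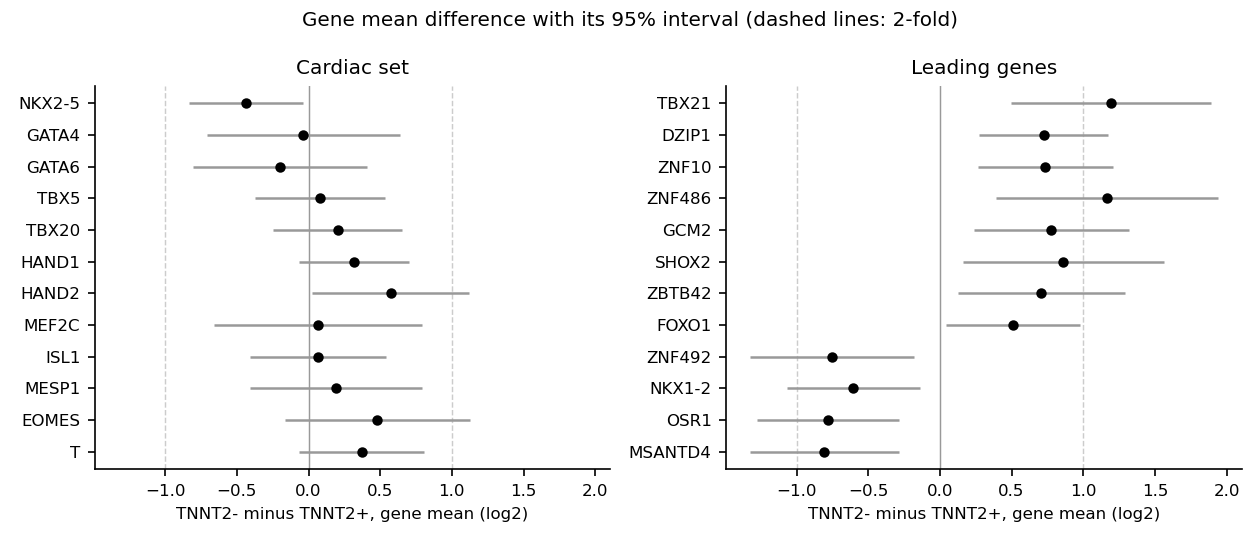
Gene mean difference (TNNT2- minus TNNT2+, log2) with its 95% interval from limma over 3 libraries per fraction. Among the 12 cardiac and mesoderm genes 10 intervals include 0 and 10 lie within the dashed lines of a 2-fold change, while the leading genes shown were selected for their difference.

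Guides against the cardiac regulators were followed individually, with T listed under the older symbol of TBXT. Of the 12 cardiac and mesoderm genes, 9 were higher and 3 lower in TNNT2- cells, 10 intervals included 0 and 10 lay wholly within a 2-fold change. Over all 1621 genes 56.9% were higher and the intervals of 82.6% lay within a 2-fold change. The count of 10 of 12 within a 2-fold change is near that share. Intervals that left out 0 were found for 62 of all genes (3.82%), and among the 12 for NKX2-5 and HAND2. NKX2-5, a homeobox activator of cardiac muscle genes on chromosome 5 from 173232109 to 173235206, had the fractions fully apart. Its guides held 12453, 14073 and 12046 normalised reads in TNNT2- and 18054, 15188 and 14887 in TNNT2+ replicates 1 to 3. The gene mean was -0.44 (interval -0.84 to -0.04), and the differentiations gave -0.64, -0.18 and -0.49. Of its guides 6 of 7 were lower in TNNT2- cells. The limma p was 0.034 unadjusted and 0.963 adjusted over all genes, so NKX2-5 did not pass.

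HAND2, a bHLH factor of the right ventricle and second heart field, was the other cardiac gene whose interval left out 0, in the opposite direction. Its guides held 15702, 16582 and 14118 normalised reads in TNNT2- and 17142, 12137 and 12831 in TNNT2+ replicates 1 to 3. TNNT2+ replicate 1 lay above all TNNT2- libraries, so the fractions overlapped. The gene mean was 0.57 (0.02 to 1.12), the differentiations gave 0.08, 1.27 and 0.36, and the adjusted p by limma was 0.963. The gene mean of HAND2 was 0.29 without TNNT2+ replicate 2 and 0.86 without TNNT2+ replicate 1, and edgeR on summed reads gave 0.17. Its paralog HAND1, of the left ventricle, differed by 0.32 (-0.07 to 0.70), with 0.49, 0.31 and 0.16 in the differentiations.

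For the other core and early regulators every interval included 0. GATA4, a zinc finger activator of cardiac genes, held 7382, 7523 and 6950 normalised reads in TNNT2- and 9528, 7826 and 7061 in TNNT2+ replicates 1 to 3. These fractions overlapped, and the gene mean of GATA4 was -0.04 (-0.71 to 0.64). GATA6 differed by -0.20 (-0.81 to 0.41). The T-box factor TBX5, which marks the left ventricle and the atria, differed by 0.08 (-0.37 to 0.53), and TBX20 by 0.20 (-0.24 to 0.65). MEF2C, a MADS-box activator of muscle genes, differed by 0.07 (-0.66 to 0.79). ISL1, of the second heart field, also differed by 0.07 (-0.41 to 0.54). Among the early regulators, MESP1 differed by 0.19 (-0.41 to 0.80), EOMES by 0.48 (-0.17 to 1.13) and T by 0.37 (-0.07 to 0.80). The interval of EOMES reached past a 2-fold change.

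Transcription factors were also read by groups, of which 14 were lists of lineage or pathway regulators. Over all 1621 genes 923 were higher and 698 lower in TNNT2- cells, 56.9% higher, with a median gene mean of 0.05. The split followed the scaling and the summary. Scaled to the control guides, the median over all genes moved up by 0.12 and 73.2% of genes were higher. The share was 58.9% with TMM factors, 51.4% with edgeR on reads summed over guides, 47.9% with the median over guides, and 49.4% without TNNT2+ replicate 1. The part of that library's low guides in the split was not tested. List counts are therefore set beside the count over all genes, and no list held a gene that passed.

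Of 23 core cardiac factors tested, 12 were higher and 11 lower in TNNT2- cells, with a median of 0.003, and at the extremes -0.54 and 0.69. Fully separate fractions by gene mean were seen for NKX2-5 and HAND1, 1 in each direction. Over all 1621 genes they were seen for 78 (4.81%) toward TNNT2- and 59 (3.64%) toward TNNT2+. Scaled to the control guides, the cardiac list had 16 higher and 7 lower and a median of 0.11, against 0.17 over all genes in that scaling. The 18 second heart field and outflow factors were 10 higher and 8 lower (median 0.05, and -0.01 without TNNT2+ replicate 1). Of 10 sinoatrial and conduction factors 8 were higher, with a median of 0.08. IRX5, which shapes the ventricular repolarisation gradient in mouse, was the highest of them at 0.99 (0.01 to 1.98), with 1.56, 1.26 and 0.16 in the differentiations, and SHOX2 was next. Without TNNT2+ replicate 1 the sinoatrial list stood at 6 higher and 4 lower.

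Mesendoderm and cardiac mesoderm factors had the largest share toward TNNT2- of the 14 lists at the deposited scaling, 15 of 18 with a median of 0.15, and in no member was the unadjusted limma p under 0.05. Their highest member was LHX1, a LIM homeobox factor of the gastrula organiser in mouse, at 0.56 (-0.04 to 1.16). Its guides held 9326, 9702 and 10381 normalised reads in TNNT2- and 8287, 7462 and 9090 in TNNT2+ replicates 1 to 3, fully apart. Without TNNT2+ replicate 1 the list stood at 12 of 18 with a median of 0.10. Of 14 WNT, NODAL and BMP effectors 8 were higher (median 0.08), led by TCF7L2, a nuclear partner of beta-catenin, at 0.60 (-0.15 to 1.34). SMAD4, the common partner of the receptor-activated SMADs, had 0.51 (-0.22 to 1.24) with its fractions apart. Of 11 Hippo and Notch effectors 9 were higher (median 0.10), with TEAD1, a DNA-binding partner of YAP, the highest at 0.69 (-0.30 to 1.67) and its fractions overlapping. The Notch target HES5 had 0.51 (0.01 to 1.01) with its fractions apart.

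Lists of other lineages gave no call either. Endoderm factors were 8 higher and 7 lower (median 0.11), with FOXA2, a pioneer factor of endoderm, at 0.60 (0.05 to 1.16). Endothelial and blood factors were 8 higher and 9 lower (median -0.01, and 0.01 with TMM factors and 0.11 scaled to the control guides). The erythroid factor GATA1 was the lowest of them at -0.48 (-0.90 to -0.05). Its guides held 11041, 10422 and 10786 normalised reads in TNNT2- and 16336, 13055 and 18079 in TNNT2+ replicates 1 to 3, fully apart. Epicardial, stromal and EMT factors were 12 higher and 9 lower (median 0.04), with OSR1 at the low end. PRRX2, a mesenchymal homeobox factor, had 0.52 (0.08 to 0.97), with 4 of 7 guides higher. With edgeR on summed reads PRRX2 was at 0.005, and with the median over guides at -0.15. Without TNNT2+ replicate 1 the median of the epicardial list was -0.07. Neural factors were 14 higher and 6 lower (median 0.13), and SOX1, an early neural factor, had 0.46 (0.02 to 0.91) with its fractions apart. Skeletal muscle factors were 7 higher and 3 lower (median 0.06).

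Among the more general lists, pluripotency factors were 8 higher and 6 lower (median 0.03, and -0.02 without TNNT2+ replicate 1), with TFCP2L1 the lowest at -0.32. Growth and general factors were 15 higher and 8 lower (median 0.10), with a median of -0.02 without TNNT2+ replicate 1. NRF1, which controls nuclear genes of mitochondria, led them at 0.55 (-0.18 to 1.29). Metabolic and hypoxia factors were 14 higher and 8 lower (median 0.14, and 0.03 without TNNT2+ replicate 1). The thyroid hormone receptor THRA had 0.57 (0.14 to 0.99) and PPARG, the receptor of adipocyte differentiation, -0.45 (-1.07 to 0.18). For THRA 4 of 7 guides were higher and the summed reads overlapped. With edgeR on summed reads THRA was at 0.16.

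The same cell line was sorted in the same way after 3D differentiation, again with 3 libraries per fraction. The difference between the 2D and the 3D sort was tested in a fit of all 12 libraries scaled together. It called 0 of 1621 genes (0%), with a smallest adjusted p of 0.997 by limma, and 20 genes had an unadjusted p under 0.05. In 3 of the 6 3D libraries guides under 10 reads were far more common, at 11.1% in TNNT2- replicate 2, 27.6% in TNNT2- replicate 3 and 43.6% in TNNT2+ replicate 3, against at most 3.19% in 2D. The 3D intervals were wider, reaching 1.58 to either side at the median over genes, against 0.53 in 2D, so that for most genes a 2-fold change in 3D lay within the interval's reach. ZNF10, a KRAB zinc finger gene, was 0.73 in 2D and -1.72 in 3D (difference -2.33, interval -3.79 to -0.87, adjusted p = 0.997 by limma). With edgeR on summed reads the 2D value of ZNF10 was 0.19. HAND2 was 0.57 in 2D and -1.11 in 3D (difference -1.59, interval -3.08 to -0.10). MSANTD4 was -0.81 in 2D and -0.48 in 3D (-1.69 to 0.72). FOXO1 was 0.51 in 2D and 0.93 in 3D (-0.30 to 2.16). NKX2-5 was -0.44 in 2D and 0.78 in 3D (-0.83 to 2.39). For MSANTD4, FOXO1 and NKX2-5 the interval of the difference included 0. Without the 3 thinly covered 3D libraries the difference was -1.47 for ZNF10 and -0.72 for HAND2, and 0 genes were called. That fit leaves 1 TNNT2- library in 3D, which is assumed to vary like the other groups. The differences were computed from the jointly scaled reads and therefore need not equal the gap between the 2 listed values.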

How the data were processed

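The authors deposited a normalised signal per guide, in 1 table for each of the 2 culture systems. Each deposited value is a read count times 1 factor per library, since dividing by the smallest value above 0 gave whole reads with a largest deviation of 1.38e-10. MAGeCK and the build hg38 are named in the submitters' processing notes, and the normalisation setting is not given in the sources used here. Guides with a mean value of at least 10 were tested with limma (version 3.58.1, R 4.3.3) and its trended prior variance on log2(value + 10), which understates changes of low guides. Genes needed 3 such guides, and 1621 remained. Rank aggregation follows the alpha-RRA of MAGeCK with alpha 0.25, except that p was computed exactly from the order statistics of uniform ranks. Normalised reads are the deposited values, and gene positions come from the RefSeq table of GRCh38.p14, in which 1600 of the tested symbols were found and 21 were not.

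The replicate number pairs the fractions, because the labels' protocols describe biological replicates that were each sorted into both. Residual correlations of same-numbered libraries were 0.0767, 0.108 and 0.126, so the pairing rests on the protocols. The fits have no block, and the block is an alternative. Intervals cover the spread between libraries only, and PCR reads without molecular identifiers are not independent molecules.

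The comparison, the gene lists and the tests were chosen with earlier results of these data known. Named genes are 10 per direction by rank aggregation, 5 per direction by gene mean, the leading member per direction of each list, a set of 12 cardiac genes and 5 leading guides per direction. The text gives a selection, and a few of these genes are not reported here. Genes named for a difference over 2-fold, for guide agreement or for separate fractions were chosen after their values were seen. List members not analysed here are ANKRD1, ID1, ID2, ID3, ID4, SMAD2, LMO2, DPPA2, DPPA4, PCBP1, RB1 and TFAM. Alternatives were edgeR (version 4.0.16) and DESeq2 (version 1.42.0) on recovered reads, other pseudocounts, scalings, filters, alphas and summaries, and each library left out. The tests were run on simulated reads in which all guides of a changed gene shared the same planted change. That run required only the right direction of the median estimates. It does not give the power of the tests in these data.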

Additional observations from a re-analysis of the deposited data

How the results depend on the processing

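The count of called genes was 0 for gene means and for the difference between systems under every alternative run. Rank aggregation called between 0 and 1 gene in each direction when libraries were left out one at a time. The call toward TNNT2- was FOXO1, without TNNT2- replicate 3 (adjusted p = 6.6e-05, limma), and the call toward TNNT2+ was MSANTD4, without TNNT2+ replicate 2 (0.0375, limma). With edgeR guide p-values rank aggregation called 1 gene toward TNNT2+, MSANTD4 (0.0359), and with DESeq2 it called 1, MSANTD4 (0.0287). DESeq2 called 3 guides toward TNNT2- and 2 toward TNNT2+. The replicate block, with same-numbered fractions taken as a pair, changed no call, with a smallest adjusted p of 0.210 by rank aggregation (MSANTD4) and 0.896 by gene means (limma). Leaving out the strongest guide of each gene called 0 genes. A first version of that alternative, which ranked the remaining guides as if none had been removed, gave calls and was replaced by one with an exact null distribution after those calls had been seen. Genes at an unadjusted p under 0.05 by gene means numbered 24 to 73 toward TNNT2- and 17 to 32 toward TNNT2+ with libraries left out, against 42 and 20, 103 and 4 when scaled to the control guides, 29 and 46 with the median over guides, 32 and 30 with edgeR on summed reads and 46 and 13 with TMM factors.

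Of 1245 values of 59 single genes, 1196 kept direction and side of the threshold, 4 passed it and 45 changed sign. The 4 are the FOXO1 and MSANTD4 calls just given, with medians over guides of 0.88 for FOXO1, and of -0.83 (replicate left out), -0.68 (edgeR) and -0.68 (DESeq2) for MSANTD4. With libraries left out, gene means ranged from -0.015 to 0.40 for FLI1, -0.15 to 0.030 for GATA4, -0.48 to 0.065 for GATA6, -0.46 to 0.065 for HEY1, -0.084 to 0.21 for ISL1 and -0.16 to 0.36 for MEF2C. They ranged from -0.12 to 0.48 for MESP1, -0.048 to 0.19 for TBX5, -0.36 to 0.16 for WIZ and -0.19 to 0.026 for ZNF677. Medians over guides ranged from -0.34 to 0.12 for MBD4, -0.37 to 0.041 for RHOXF2, -0.66 to 0.18 for WIZ, -0.42 to 2.15 for ZNF491 and -0.22 to 0.25 for ZNF677. Scaled to the control guides, gene means turned to 0.084 for GATA4, 0.071 for WIZ and 0.014 for ZNF677, and medians to 0.081 for MBD4, 0.032 for RHOXF2 and 0.0088 for WIZ. The median of MBD4 was 0.025 with edgeR and 0.021 with DESeq2. With the median over guides, values turned to -0.0051 for MESP1, -0.15 for PRRX2, 0.035 for SNAI2, -0.060 for TBX20, 0.17 for WIZ, 0.47 for ZNF107 and -0.015 for ZNF491. With edgeR on summed reads they turned to -0.091 for TBX5, 0.041 for WIZ, 0.16 for ZIC1 and -0.067 for ZNF491. The cause of these changes was not tested. Medians over guides were followed only for genes named by rank aggregation, a restriction made after a longer table had shown more changes of sign. Each interval rests on 3 libraries per fraction, at a median of at least 1693 reads per guide.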

Other observations

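Structural families give a further view of the same gene means, grouped by symbol after the values were available. Of 491 ZNF genes 247 were higher and 244 lower in TNNT2- cells (median 0.002), with 20 fully above and 18 fully below. Over all 1621 genes 78 (4.81%) were fully above and 59 (3.64%) fully below, so the ZNF counts are near the share of all genes. Of 48 forkhead genes 29 were higher (median 0.12), of 39 HOX genes 21 (0.03), of 47 nuclear receptors 24 (0.002) and of 17 KLF genes 7 (-0.10). The GATA family had 1 of 6 higher (median -0.22), with GATA3, a factor of trophoblast and T cells, at 0.43 and GATA5 at -0.54. The HES and HEY family of Notch targets had 7 of 10 higher (median 0.21). Over all genes 923 of 1621 were higher with a median of 0.05, and no member of these families passed. Scaled to the control guides, the median over all genes moves up by 0.12, which is more than the distance from 0 of the KLF median.

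Among the leading single guides, PHOX2A_4, against a factor of autonomic neurons, held 221.8, 245.7 and 486.9 normalised reads in TNNT2- and 1731, 1888 and 2272 in TNNT2+ replicates 1 to 3, a difference of -2.67 (-4.20 to -1.14). ZKSCAN7_4 held 3038, 2652 and 1382 against 251.6, 963.4 and 333.2, a difference of 2.34 (0.91 to 3.76). PHF21A_4, against a reader of unmethylated histone H3, held 3099, 3967 and 1899 against 814.5, 1337 and 789.8, a difference of 1.58 (0.60 to 2.55). The fractions of all 3 guides were fully apart, and their adjusted p was 0.986 by limma.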
